A study of Mus musculus with 4 samples.

Results

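Fast inhibition in the brain runs through chloride channels that open on GABA or glycine. This account covers 28 genes of that system out of the 31053 gene symbols of a single-nucleus RNA sequencing study of the mouse mediobasal hypothalamus. They are 12 subunits of the GABA-A receptor, the rho subunits Gabrr1 and Gabrr2, both GABA-B receptor subunits, 5 glycine receptor subunits, the postsynaptic proteins Gphn and Nlgn2, the transporters Slc6a11 and Slc6a9, the GABA-degrading enzyme Abat, and the chloride cotransporters Slc12a2 and Slc12a5. The genes were chosen by symbol, for their function, and all 28 symbols were found. Earlier results of these data were known at the time, so the choice was not blind to them.

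The study treated wild-type mice, kept on chow with free access to food, with insulin or with saline, dissected the hypothalamus and sorted its nuclei for droplet-based sequencing. There were 2 Insulin libraries and 2 Saline libraries, 1 of each treatment in each of 2 sequencing runs (run 230 and run 232). Dose, route, time after treatment, age and the number of mice per library are not given in the sources used here, so the tests see only how far these 4 libraries vary, which may be technical. All groups share the same strain description (wild type) and diet, and the saline mice are the only control.

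GABA-A receptors are pentamers, usually of alpha and beta subunits with a gamma, delta, epsilon or theta subunit, and the subunits present set where the receptor sits and how it responds. GABA-B receptors are pairs of Gabbr1 and Gabbr2 that act through G proteins. Whether an open chloride channel hyperpolarises a cell depends on Slc12a5 (KCC2), which extrudes chloride, and Slc12a2 (NKCC1), which imports it. In the arcuate nucleus, GABA from Agrp neurons is part of the circuit that controls feeding.

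The authors' annotation gave 36523 nuclei analysed here, of which 23261 were neurons in 37 populations and 11723 belonged to 7 other cell types. Libraries held 63590421 to 71391593 UMIs (unique molecular identifiers, each counting 1 captured RNA molecule). Counts were summed per library within each cell type and each neuron population, so n = 4 libraries unless stated, and levels are CPM, UMIs of a gene per 1000000 UMIs of the same nuclei and library. Where 4 values are given, run 230 comes before run 232 within each treatment, and errors after ± are SDs. CPM is not scaled to gene length, so each gene is compared only with itself. Xist was at 4.88 and 4.53 CPM in the Insulin and Saline libraries of run 230 and at 1713 and 1614 CPM in those of run 232, while Uty, a gene of the Y chromosome, had 175 and 177 CPM in those of run 230 and 1.02 and 1.40 CPM in those of run 232, so run and sex cannot be told apart. Between the libraries of a run, 179 barcodes (run 230) and 65 barcodes (run 232) were shared, against 14 to 25 between libraries of different runs.

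The annotation did not match the marker genes for 2 cell types. Nuclei annotated Endothelial held 2423 ± 264 CPM of Col23a1 and 84.4 ± 9.41 CPM of Rax, both markers of tanycytes. Of the endothelial markers they held 279 ± 40.6 CPM of Flt1 but little Cldn5 (1.69 ± 1.13 CPM) and Pecam1 (3.87 ± 1.47 CPM), and all 3 were highest in nuclei annotated Mural Cell. Nuclei annotated Mural Cell held the mural markers Pdgfrb (525 ± 43.4 CPM), Rgs5 (598 ± 109.7 CPM) and Abcc9 (361 ± 134 CPM) and also the endothelial markers Flt1 (1621 ± 139 CPM), Cldn5 (538 ± 106 CPM) and Pecam1 (195 ± 34.5 CPM). Both are therefore called below by their annotation only. In the other 6 types the markers of the name were highest in that type, except the astrocyte marker Aqp4, which was highest in Ependymo, and the tanycyte markers Rax and Col23a1, listed with the ependymal markers, which were highest in nuclei annotated Endothelial. Nuclei annotated Ependymo numbered 16 in the Insulin library of run 230, and Slc12a2 and Slc12a5 had 0 UMIs in it.

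The first comparison asked in which cell types each gene was found. Neurons held the highest level of 11 genes, among them most GABA-A alpha subunits, 3 of the 4 alpha subunits of the glycine receptor and Slc12a5. Astrocytes held the highest level of 7, including the GABA transporter Slc6a11 and both GABA-B subunits, and oligodendrocytes stood apart with Gabrr2 and Slc12a2. Against the mean of the other cell types, 134 of 200 tests passed (64 higher, 70 lower), where 46.8% of all tests over all genes did (25.3% higher and 21.5% lower). Calls came from edgeR (quasi-likelihood), with p adjusted over every gene and type together and a threshold of 0.05. The test covered 25 of the 28 genes, since Gabra6, Gabrd and Gabrr1 had too few UMIs. In such sums fewer nuclei with a transcript and less of it per nucleus cannot be told apart.

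**Figure D1:**
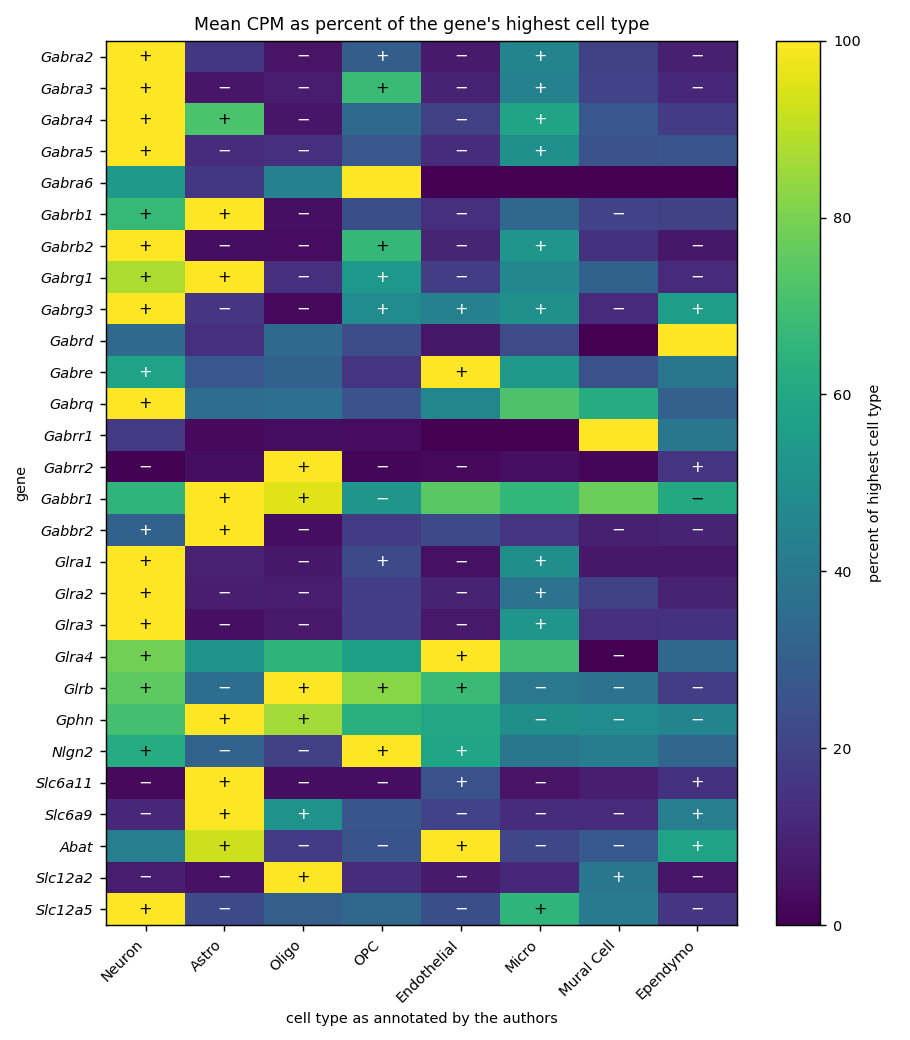
Mean CPM of each gene (rows) in each annotated cell type (columns) as a percent of the gene's highest cell type, with + or − where the type was higher or lower than the mean of the others (edgeR adjusted p under 0.05). Most GABA-A alpha subunits and Glra1, Glra2 and Glra3 are brightest in neurons, Slc6a11, Slc6a9 and Gabbr2 in astrocytes, and Gabrr2 and Slc12a2 in oligodendrocytes, while Gabra6, Gabrd and Gabrr1 were not tested.

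Among GABA-A subunits in neurons, the alpha subunit Gabra2 had 533 and 487 CPM in the Insulin libraries and 534 and 516 CPM in the Saline libraries (log2 2.86, SE 0.18, edgeR adjusted p = 1.07e-15). All 4 values lay above those of every other type. The beta subunit Gabrb2 averaged 227 ± 13.8 CPM in neurons (log2 3.10, SE 0.15, edgeR adjusted p = 4.99e-19), the alpha subunits Gabra3 152 ± 2.74 CPM (log2 2.71), Gabra5 102 ± 3.12 CPM (log2 2.34) and Gabra4 46.99 ± 1.71 CPM (log2 1.97). The gamma subunit Gabrg3 averaged 1136 ± 89.8 CPM (log2 2.24) and the theta subunit Gabrq 12.4 ± 1.16 CPM (log2 1.37). In neurons 18 of the 25 genes were higher and 4 lower, where 35.7% and 31.7% of all genes were. Astrocytes had 9 higher and 10 lower (28.1% and 24.8% of all genes), oligodendrocytes 6 and 15 (27.6% and 29.4%), and OPC, oligodendrocyte precursor cells, 8 and 4 (24.9% and 16.2%). Nuclei annotated Endothelial had 7 higher and 14 lower (22.4% and 19.2% of all genes), Micro 10 and 5 (24.0% and 12.7%), Mural Cell 1 and 8 (18.7% and 17.1%), and Ependymo 5 and 10 (20.9% each).

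Astrocytes held more of the beta subunit Gabrb1 than neurons did. Its level was 2468 and 2084 CPM in the Insulin libraries and 2341 and 2178 CPM in the Saline libraries, all above the neuronal values of 1579.6 and 1485 CPM in the Insulin libraries and 1580.1 and 1443 CPM in the Saline libraries. Against the mean of the other types it was higher in astrocytes (log2 2.53, SE 0.17, edgeR adjusted p = 3.2e-15) and in neurons (log2 1.79). The gamma subunit Gabrg1 averaged 176 ± 8.98 CPM in astrocytes (log2 1.93) and 155 ± 20.8 CPM in neurons (log2 1.62), and the 2 types overlapped. Gabra4 was also higher in astrocytes, at 33.7 ± 4.28 CPM (log2 1.51). Oligodendrocytes were low in GABA-A subunits, with Gabrg3 at 29.1 ± 10.98 CPM (log2 -3.69), Gabrb1 at 91.1 ± 29.8 CPM (log2 -2.77) and Gabra4 at 2.80 ± 0.111 CPM (log2 -2.52).

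The epsilon subunit Gabre was highest in nuclei annotated Endothelial, at 18.1 and 5.22 CPM in the Insulin libraries and 6.79 and 8.92 CPM in the Saline libraries (log2 1.18, SE 0.38, edgeR adjusted p = 0.00967). Its libraries overlapped those of neurons, which averaged 5.65 ± 1.29 CPM (log2 0.67). Without the Insulin library of run 230, the highest, the difference did not pass (log2 0.82, edgeR adjusted p = 0.142). Gabra6, known from cerebellar granule cells, and the delta subunit Gabrd, known for tonic inhibition outside synapses, were at 0.147 ± 0.115 CPM and 1.002 ± 0.162 CPM in neurons, with 33 and 222 UMIs there over all libraries.

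The largest log2 difference among the genes called higher was that of Gabrr2 in oligodendrocytes. The gene encodes a subunit of GABA-gated chloride channels. Gabrr2 had 125 and 122 CPM in the Insulin libraries and 148 and 140.0 CPM in the Saline libraries in oligodendrocytes and 0.959 and 1.27 CPM in the Insulin libraries and 0.878 and 0.938 CPM in the Saline libraries in neurons. Oligodendrocytes were 5.41 on the log2 scale above the mean of the other types (SE 0.13, edgeR adjusted p = 9.61e-28). The next type was Ependymo at 20.4 ± 7.20 CPM, whose libraries did not overlap with those of oligodendrocytes. A Gabrr2 UMI was found in 24.1% ± 3.14 of oligodendrocyte nuclei and 0.869% ± 0.0536 of neurons, at median depths of 2354 and 8445 UMIs per nucleus. With every nucleus thinned to 1000 UMIs, which left out 40 oligodendrocyte and 42 neuronal nuclei below that depth, the shares were 12.7% ± 1.59 and 0.101% ± 0.0428. The other rho subunit gene, Gabrr1, also on chromosome 4, had 1 UMI in oligodendrocytes and 155 in neurons.

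The GABA-B subunit Gabbr2 was highest in astrocytes, with 674 and 688 CPM in the Insulin libraries and 918 and 592 CPM in the Saline libraries (log2 3.10, SE 0.12, edgeR adjusted p = 5.7e-22). All 4 lay above the neuronal libraries, which averaged 222 ± 10.6 CPM (log2 1.10). Oligodendrocytes had 26.9 ± 12.03 CPM of Gabbr2 (log2 -2.28). Its partner Gabbr1 varied less between types. It averaged 196 ± 16.4 CPM in astrocytes (log2 0.69), 187 ± 28.8 CPM in oligodendrocytes (log2 0.67) and 128 ± 10.7 CPM in neurons, where the difference did not pass (edgeR adjusted p = 0.345).

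Of the 4 glycine receptor alpha subunits, Glra1, Glra2 and Glra3 were highest in neurons. Glra3 averaged 132 ± 6.88 CPM in neurons (log2 3.16, SE 0.17, edgeR adjusted p = 2.13e-17), Glra1 50.5 ± 7.63 CPM (log2 3.27) and Glra2 49.8 ± 2.30 CPM (log2 2.93). The beta subunit Glrb, which anchors the receptor to gephyrin, followed another order. It was highest in oligodendrocytes at 213 ± 11.99 CPM (log2 1.36), then in OPC at 175 ± 11.9 CPM (log2 0.98) and in neurons at 159.8 ± 12.9 CPM (log2 0.73). Glra4 had 6.70 ± 3.43 CPM in nuclei annotated Endothelial, 5.29 ± 1.86 CPM in neurons and 0 UMIs in nuclei annotated Mural Cell, which allows up to 3.17 CPM there. Both of the first were called higher, but no fold is given, since the mean of the others includes the type at 0. In nuclei annotated Endothelial the call was lost without the Insulin library of run 230 (edgeR adjusted p = 0.0759).

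The postsynaptic scaffold Gphn (gephyrin) was found in all types, from 582 ± 104 CPM in Ependymo to 1292 ± 70.3 CPM in astrocytes (log2 0.92). Neurons, at 906 ± 40.9 CPM, did not pass (log2 0.25, edgeR adjusted p = 0.0524). Gephyrin also makes the molybdenum cofactor outside synapses. Nlgn2 (neuroligin 2), an adhesion protein of inhibitory synapses, was highest in OPC at 74.6 ± 4.62 CPM (log2 1.50), with no overlap with neurons at 46.1 ± 1.45 CPM (log2 0.63).

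Both transporters were highest in astrocytes. Slc6a11 (GAT-3), the astrocytic GABA transporter, had 1100.0 and 1102 CPM in the Insulin libraries and 1242 and 1003 CPM in the Saline libraries in astrocytes (log2 4.07, SE 0.10, edgeR adjusted p = 1.23e-27). Nuclei annotated Endothelial came next at 278 ± 25.6 CPM (log2 1.48) and neurons were lowest at 27.5 ± 1.89 CPM (log2 -2.12). Every astrocyte library lay above every library of the other types. Slc6a9 (GlyT1), which takes up glycine, averaged 116 ± 19.9 CPM in astrocytes (log2 2.38), 59.2 ± 9.29 CPM in oligodendrocytes (log2 1.33) and 13.5 ± 1.51 CPM in neurons (log2 -1.25). Abat (GABA transaminase) was highest in nuclei annotated Endothelial at 307 ± 21.7 CPM (log2 1.36) and in astrocytes at 284 ± 29.3 CPM (log2 1.54), whose libraries overlapped. Neurons, at 132 ± 5.56 CPM, did not pass (log2 0.19).

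The chloride cotransporters split between neurons and oligodendrocytes. Slc12a5, the exporter, had 139 and 134 CPM in the Insulin libraries and 136 and 148 CPM in the Saline libraries in neurons (log2 1.78, SE 0.11, edgeR adjusted p = 5.18e-16), and nuclei annotated Micro, the next type, overlapped with it. Slc12a2, the importer, had 588 and 476 CPM in the Insulin libraries and 586 and 460.3 CPM in the Saline libraries in oligodendrocytes (log2 3.56, SE 0.08, edgeR adjusted p = 1.23e-27), and 208 ± 17.2 CPM in nuclei annotated Mural Cell (log2 1.54). It was the single gene of the 25 called higher in that type. Neurons held 41.2 ± 2.16 CPM of Slc12a2 (log2 -0.79).

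**Figure D2:**
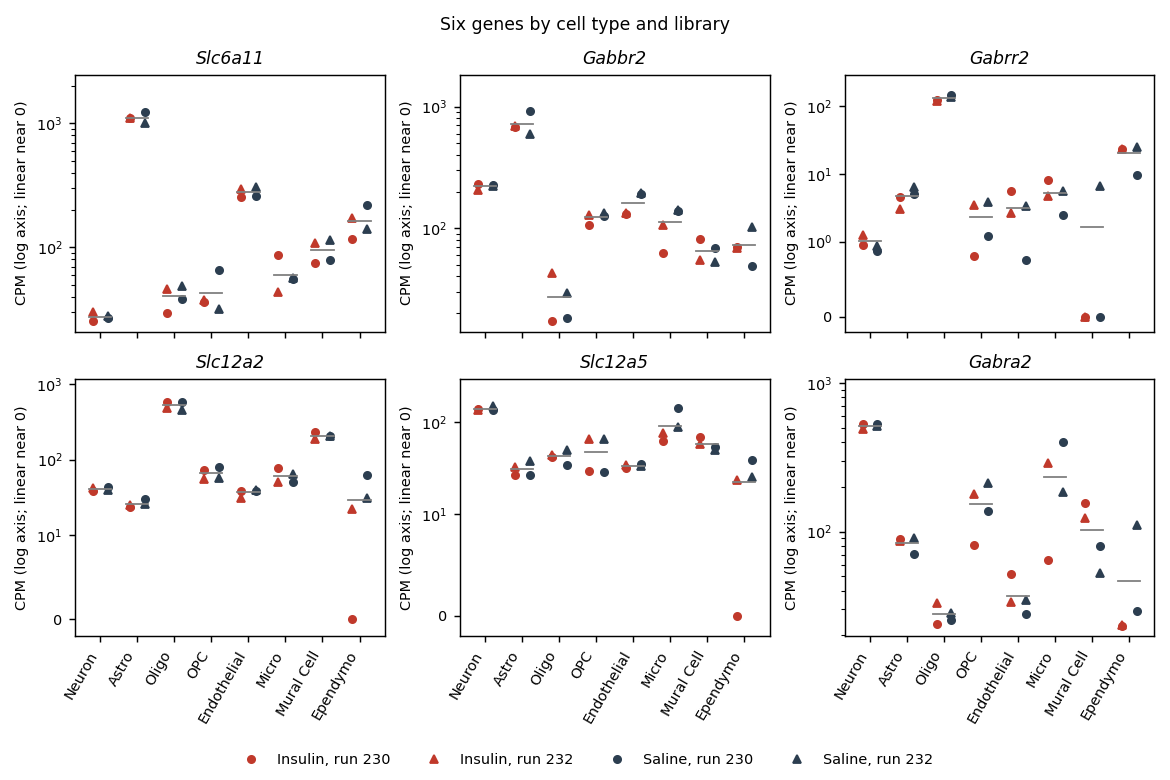
CPM of 6 genes (panels, log axis, linear near 0) in each cell type, with 1 point per library (Insulin red and left, Saline dark and right, circles run 230, triangles run 232) and a grey line at the mean of 4 libraries. The cell type of the highest level stands clear of the others for Slc6a11, Gabrr2 and Slc12a2. There the Insulin and Saline libraries overlap for Slc6a11 and Slc12a2, and the Insulin libraries lie below the Saline libraries for Gabrr2. For Slc12a2 both run 230 libraries lie above both run 232 libraries.

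Gabrr2, Slc6a11 and Slc12a5 were highest in 3 different cell types, so the 100 bases before their annotated starts are shown, all on the plus strand of GRCm38, from RefSeq (GRCm38.p6). Capitals mark CG dinucleotides, which read the same on both strands.
Gabrr2 (chr4:33062899-33062998): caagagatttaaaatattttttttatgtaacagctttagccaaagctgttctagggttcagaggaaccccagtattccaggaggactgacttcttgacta
Slc6a11 (chr6:114131141-114131240): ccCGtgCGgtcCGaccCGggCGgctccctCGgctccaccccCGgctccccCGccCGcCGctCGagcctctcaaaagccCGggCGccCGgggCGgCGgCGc
Slc12a5 (chr2:164960702-164960801): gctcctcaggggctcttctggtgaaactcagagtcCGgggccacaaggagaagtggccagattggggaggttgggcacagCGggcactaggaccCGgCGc
The Gabrr2 stretch, of the oligodendrocyte gene, held 0 CG and 38% G and C. The Slc6a11 stretch, of the astrocyte gene, held 17 CG and 84% G and C. The Slc12a5 stretch, of the neuronal gene, held 4 CG and 65% G and C. Slc12a5 had 2 starts among the RefSeq promoters, Gabrr2 and Slc6a11 had 1 each, and 1 stretch is shown per gene. In the 250 bases before the start, at least 1 CG was present in 91.7% of 27025 promoters. Gabrr2 had 1, and 19.4% of all promoters had as many or fewer. Slc6a11 had 25. The 24 genes of the 28 found in the promoter table had a median of 10.5 CG, against 6 over all promoters.

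Neuronal RNA was present in the nuclei of other types. Snap25, Syt1 and Rbfox3, markers of neurons, were at 43.1% to 50.8% of their neuronal level in nuclei annotated Micro (microglia), at 17.1% to 48.7% in OPC and at 3.57% to 12.7% in astrocytes. In nuclei annotated Micro, 10 of the 25 genes were called higher than in the mean of the other types, among them Glra1, Glra3 and Gabrb2, and 4 of these 10 lay above the neuron markers' share of the neuronal level. In OPC this held for 5 of 8 genes called higher, in astrocytes for 9 of 9 and in oligodendrocytes for 6 of 6. The part of this RNA in the calls was not tested.

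Other genes of the system, a list of 36 that holds enzymes of GABA and glycine metabolism, receptor trafficking factors, Kctd subunits of GABA-B receptors and regulators of chloride transport, differed between types as well. Of 256 tests over 32 of them, 158 passed, 81 higher and 77 lower, or 61.7%. Over all genes 46.8% of tests passed (25.3% higher and 21.5% lower). Kctd16, an auxiliary GABA-B subunit, was at 10.5 ± 2.21 CPM in astrocytes (log2 -3.91, SE 0.33, edgeR adjusted p = 2.74e-12), where Gabbr2 was high. Kctd8, of the same family, was at 438 ± 82.2 CPM in Ependymo (log2 3.10), 9.96 ± 1.09 CPM in astrocytes (log2 -2.90) and 15.4 ± 11.2 CPM in nuclei annotated Mural Cell (log2 -2.36). Wnk2, a kinase of the family that regulates chloride cotransporters, was at 607 ± 42.01 CPM in nuclei annotated Endothelial (log2 2.33) and at 7.80 ± 2.59 CPM in oligodendrocytes (log2 -4.46). Gldc, of the glycine cleavage system, was at 105 ± 21.6 CPM in nuclei annotated Endothelial (log2 2.90) and at 2.21 ± 0.735 CPM in oligodendrocytes (log2 -3.12). The amino acid transporter Slc38a1 was high in nuclei annotated Ependymo (1017 ± 222 CPM, log2 3.51) and Endothelial (631 ± 97.8 CPM, log2 2.74).

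In neurons the companions with the largest differences were Iqsec3, a gephyrin-binding protein (92.9 ± 5.93 CPM, log2 3.07), the potassium-chloride cotransporter Slc12a4 (0.593 ± 0.153 CPM, log2 -4.45) and Dbi, a peptide that binds GABA-A receptors (20.1 ± 7.62 CPM, log2 -2.72). Iqsec3 also was called in nuclei annotated Micro (59.7 ± 27.5 CPM, log2 2.20), beside Kctd12 (59.8 ± 43.4 CPM, log2 2.99). Iqsec3 was there at 64.3% of its neuronal level, and the neuron markers at 43.1% to 50.8% of theirs. The part of neuronal RNA in that call was not tested. Slitrk3, a synaptic adhesion protein, was high in OPC (40.1 ± 4.63 CPM, log2 2.70) and Kctd12 low there (1.91 ± 1.69 CPM, log2 -2.20). Nuclei annotated Mural Cell held Tspo, the mitochondrial translocator protein (61.6 ± 11.3 CPM, log2 3.56), and Slc6a13 (GAT-2) at 174 ± 76.1 CPM, for which no fold is given, since OPC held 0 UMIs of it. Slc12a7 was at 31.8 ± 11.2 CPM in Ependymo (log2 3.98), 0.515 ± 0.364 CPM in astrocytes (log2 -2.49) and had 3 UMIs in oligodendrocytes.

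The second comparison asked how these genes differ between neuron populations. Of 875 tests over 25 genes and 35 populations with at least 10 nuclei in every library, 459 passed by edgeR's test (265 higher, 194 lower), or 52.5%, where 21.2% of tests over all genes did (13.0% higher, 8.15% lower). The median gene of the 25 was called in 20 populations, against 5 for all genes. Gabra6, Gabrr1 and Gabrr2 had too few UMIs in neurons to be tested. M2.Hdc and M13.Irx5 were left out, with 2 and 9 nuclei in their smallest library. M2.Hdc neurons, which make histamine, had 1229 ± 86.1 CPM of Gabra2, more than any tested population averaged. They also averaged less than any tested population in Gabrg3 (145 ± 61.8 CPM), Gabrg1 (30.9 ± 21.5 CPM) and Gabra3 (30.1 ± 19.01 CPM). The same held for Slc6a11 (3.81 ± 2.62 CPM) and Glra4 (2 UMIs). Highest and lowest below refer to the 35 tested populations.

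**Figure D3:**
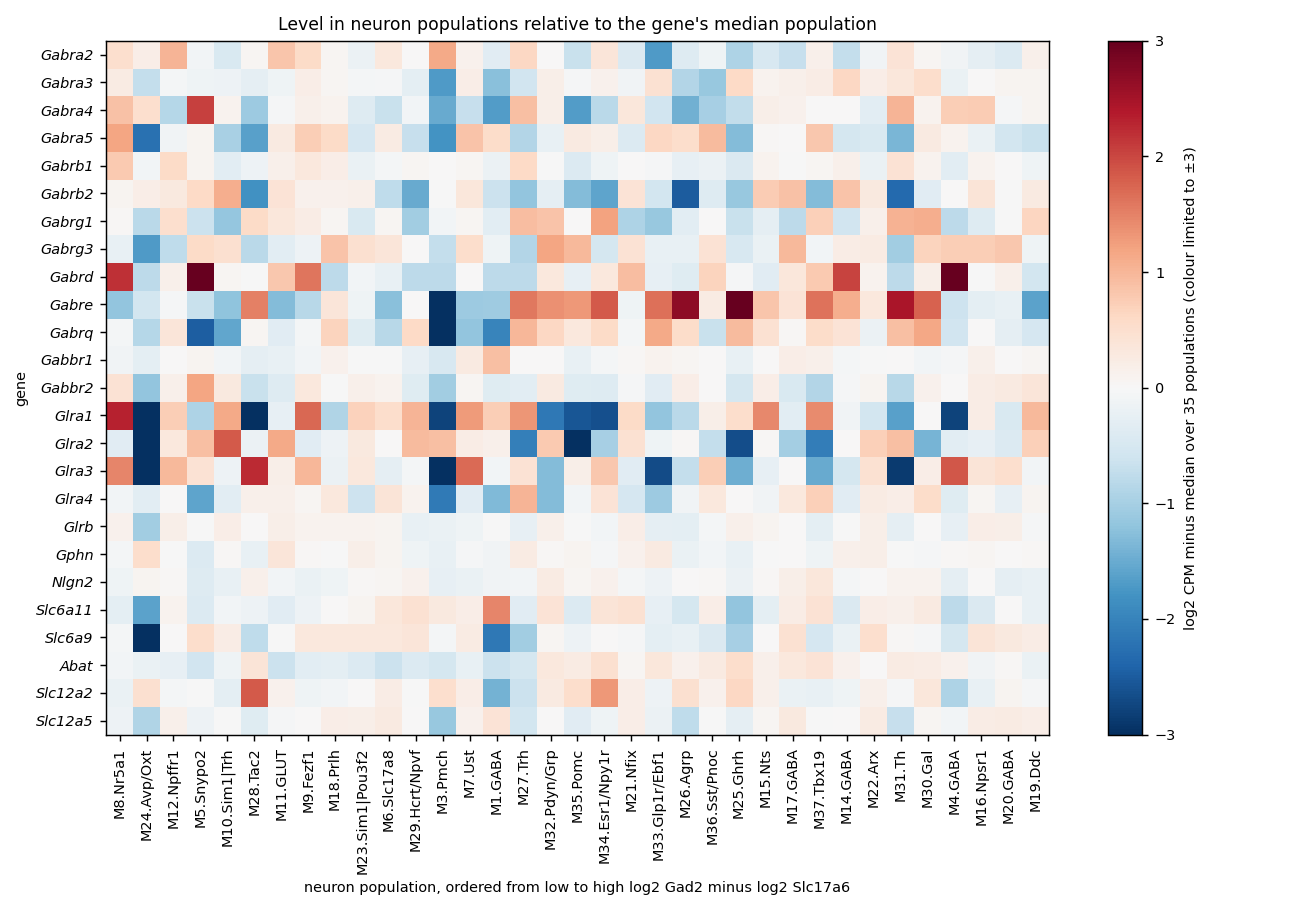
Level of 25 genes (rows) in 35 neuron populations (columns) as log2 CPM (prior count 0.5, scaled to library size) minus the gene's median over populations, averaged over 4 libraries, with populations ordered by log2 Gad2 minus log2 Slc17a6. Gabre, Glra3, Glra2 and Glra1 show a wide range, while Nlgn2, Gphn and Gabbr1 are nearly even, and the colours follow single populations more than the left-to-right order.

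Agrp neurons, which drive feeding, had the lowest Gabrb2 of the 35 populations. The beta subunit was at 37.6 and 31.6 CPM in the Insulin libraries and 32.8 and 45.8 CPM in the Saline libraries (log2 -2.40, SE 0.13, edgeR adjusted p = 1.14e-33), against a median population of 210.2 CPM. M31.Th neurons, at 41.9 ± 9.06 CPM, came near, and M10.Sim1|Trh neurons were highest at 442 ± 30.8 CPM (log2 1.48). Pomc neurons, which restrain feeding, had 86.3 ± 16.6 CPM (log2 -1.11).

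Agrp and M31.Th neurons were also among the 3 populations with the most Gabre, the epsilon subunit. Ghrh neurons, which make growth hormone-releasing hormone, had the highest mean, with 31.99 and 59.4 CPM in the Insulin libraries and 26.4 and 50.1 CPM in the Saline libraries (log2 3.08, SE 0.24, edgeR adjusted p = 7.75e-23), where both run 232 libraries were above both run 230 libraries. Agrp neurons had 27.2 ± 2.71 CPM (log2 2.43), with overlap between the populations, and M31.Th neurons 23.4 ± 5.23 CPM (log2 2.22). M3.Pmch neurons had 0 UMIs of Gabre, which allows up to 1.84 CPM, and its fitted value is part of the mean that the others were set against. Across the 35 populations, Gabre and Gabrb2 had a Spearman rho of -0.52 (Pearson r = -0.59), and Gabre and Gabrq, which lie near each other on the X chromosome, 0.85 (Pearson r = 0.81). All populations come from the same 4 libraries and differ in depth, so these are descriptions.

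**Figure D4:**
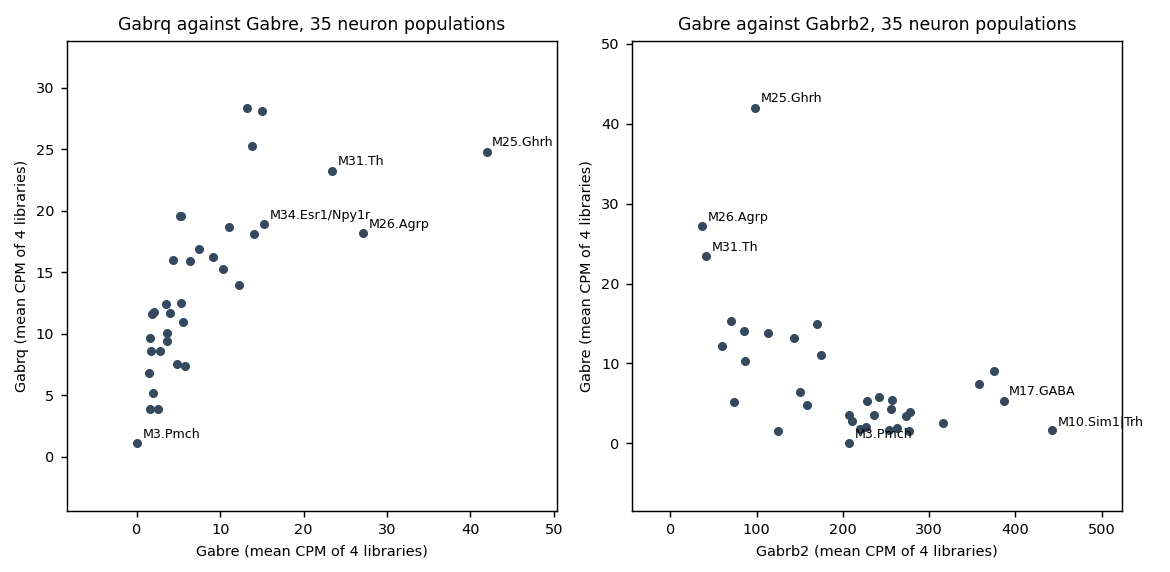
Mean CPM of Gabrq against Gabre (left) and of Gabre against Gabrb2 (right), with 1 point per neuron population (35) and some populations named. Populations with more Gabre have more Gabrq, and the 3 populations with the most Gabre (M25.Ghrh, M26.Agrp, M31.Th) have 98.2, 36.9 and 41.9 CPM of Gabrb2, below the median population of 210.2 CPM.

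In Agrp neurons 5 genes were higher and 13 lower than in the mean of the other populations, where 19.7% and 14.8% of all genes were, and in Pomc neurons 4 and 9 (11.6% and 8.51% of all genes). Both were lower in Gabra2, Gabra4, Gabrb1, Gabrb2, Glra1 and Slc12a5, and both were higher in Gabra5 and Gabre. Slc12a5, the chloride exporter, had a log2 difference from the other populations of -0.78 in Agrp neurons and -0.33 in Pomc neurons. Gabrg3 was lower in Agrp neurons (log2 -0.35) and higher in Pomc neurons (log2 0.84), and the difference between the 2 populations was not itself tested. Glra2 was at 8.98 and 2.74 CPM in the Insulin libraries and 1.13 and 8.19 CPM in the Saline libraries in Pomc neurons (log2 -2.87).

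Other GABA-A subunits had their own extremes. The alpha subunit Gabra4 was highest in M5.Snypo2 neurons, with 177 and 170.0 CPM in the Insulin libraries and 149.7 and 187 CPM in the Saline libraries (log2 2.37, SE 0.11, edgeR adjusted p = 6.3e-40), above every library of the next population, M31.Th at 83.6 ± 11.5 CPM, and lowest in Pomc neurons at 12.97 ± 3.16 CPM (log2 -1.72). M5.Snypo2 neurons also had the most Gabbr2, 466 ± 71.04 CPM (log2 1.52), and the most Gabrd, at 9.86 and 12.98 CPM in the Insulin libraries and 2.23 and 15.7 CPM in the Saline libraries (38 UMIs). Gabrd had 0 UMIs in 7 populations, so no fold is given. M4.GABA neurons followed at 7.26 ± 2.23 CPM.

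M8.Nr5a1 neurons, of the ventromedial nucleus, were highest in Gabra5 at 203 ± 3.96 CPM (log2 1.51, SE 0.06, edgeR adjusted p = 8.83e-50), Gabrb1 at 2378 ± 63.4 CPM (log2 0.93) and Glra1 at 144 ± 6.38 CPM (log2 2.68). In each case the 4 libraries lay above those of the next population. M24.Avp/Oxt neurons, which make vasopressin and oxytocin, were lowest in Gabra5 (20.2 ± 9.65 CPM, log2 -1.78) and Gabrg3 (301 ± 47.99 CPM, log2 -1.82), and Ghrh neurons in Gabrb1 (1016 ± 122 CPM, log2 -0.51). Gabrg3 was highest in M32.Pdyn/Grp neurons (2206 ± 224 CPM, log2 1.05). Gabrg1 was highest in M34.Esr1/Npy1r neurons (335 ± 44.8 CPM, log2 1.16) and lowest in M10.Sim1|Trh neurons (66.1 ± 14.3 CPM, log2 -1.10).

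M3.Pmch neurons, which make melanin-concentrating hormone, had the most Gabra2, with 1272 and 679 CPM in the Insulin libraries and 1069 and 1199 CPM in the Saline libraries (log2 1.40, SE 0.07, edgeR adjusted p = 1.75e-37). Their libraries overlapped those of the next population, M12.Npffr1, at 943 ± 65.2 CPM. They had the least Gabra3 (46.5 ± 11.05 CPM, log2 -1.41), Gabrq (2 UMIs) and Slc12a5 (67.1 ± 25.2 CPM, log2 -0.84). M33.Glp1r/Ebf1 neurons had the least Gabra2 (143 ± 19.9 CPM, log2 -1.85) and the most Gabrq (28.4 ± 10.8 CPM, log2 1.04). For Gabrq their libraries overlapped those of M30.Gal, at 28.2 ± 6.17 CPM. M14.GABA neurons had the most Gabra3 (229 ± 18.1 CPM, log2 0.81).

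Glycine receptor alpha subunits differed widely between the populations. Glra3 had 683 and 276 CPM in the Insulin libraries and 458 and 326 CPM in the Saline libraries in M28.Tac2 neurons (log2 2.46, SE 0.13, edgeR adjusted p = 3.92e-37), with overlap with M4.GABA at 320.3 ± 45.8 CPM. M3.Pmch neurons had 5.58 and 7.19 CPM in the Insulin libraries and 1.58 and 0 CPM in the Saline libraries of it (5 UMIs, log2 -4.63). Glra2 was highest in M10.Sim1|Trh neurons (151 ± 4.71 CPM, log2 2.16) and lowest in M24.Avp/Oxt neurons (3.89 ± 1.49 CPM, log2 -3.25). M24.Avp/Oxt neurons were also lower in Glra1 (log2 -1.93), Glra3 (log2 -2.99) and the beta subunit Glrb (74.9 ± 15.7 CPM, log2 -1.10), whose highest population was M21.Nfix (176 ± 12.7 CPM, log2 0.24). Glra1 was lowest in M4.GABA neurons (4.64 ± 2.99 CPM, log2 -2.43). Glra4 was highest in M27.Trh neurons at 11.8 ± 5.996 CPM (18 UMIs, log2 1.04, edgeR adjusted p = 0.0477) and had 4 UMIs in M3.Pmch neurons. That call was lost without the Insulin library of run 230 (log2 1.14, edgeR adjusted p = 0.137), the Saline library of run 230 (log2 1.22, edgeR adjusted p = 0.0562) or the Saline library of run 232 (log2 0.66, edgeR adjusted p = 0.364).

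The scaffold and adhesion genes were more even. Gphn ranged from 666 ± 59.3 CPM in M5.Snypo2 (log2 -0.26) to 1265 ± 85.7 CPM in M24.Avp/Oxt neurons (log2 0.55). Nlgn2 ranged from 36.7 ± 5.49 CPM in M5.Snypo2 to 60.9 ± 9.83 CPM in M37.Tbx19 neurons, and that last population was the single one called (log2 0.27, edgeR adjusted p = 0.0449). It did not pass without the Insulin library of run 230 (adjusted p = 0.142), the Insulin library of run 232 (log2 0.19, adjusted p = 0.357) or the Saline library of run 232 (adjusted p = 0.132). Gabbr1 was highest in M1.GABA (247 ± 73.3 CPM, log2 0.65) and lowest in M3.Pmch neurons (92.8 ± 17.3 CPM, log2 -0.31), and Gabbr2 lowest in M24.Avp/Oxt neurons (92.1 ± 25.4 CPM, log2 -0.97). M1.GABA nuclei had a median of 1336.5 UMIs, against 8445 over all neurons. The call of Gabbr1 there was lost without the Insulin library of run 230 (log2 0.43, edgeR adjusted p = 0.204) and in nuclei of at least 2000 UMIs (adjusted p = 0.443).

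For chloride transport, M28.Tac2 neurons, which make neurokinin B, had the most Slc12a2, with 125 and 106 CPM in the Insulin libraries and 161 and 172 CPM in the Saline libraries (log2 1.68, SE 0.12, edgeR adjusted p = 1.82e-25). The next population, M34.Esr1/Npy1r, was at 96.00 ± 13.05 CPM (log2 1.09) and overlapped, and M4.GABA neurons were lowest at 20.3 ± 1.86 CPM (log2 -0.95). The exporter Slc12a5 was lower in M28.Tac2 neurons at 107 ± 17.1 CPM (log2 -0.30), and its highest population, M1.GABA at 184 ± 20.5 CPM, did not pass (log2 0.16, edgeR adjusted p = 0.695).

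Abat was highest in Ghrh neurons (201 ± 12.6 CPM, log2 0.55) and lowest in M6.Slc17a8 neurons (88.5 ± 3.87 CPM, log2 -0.59). The glial transporters were low in neurons. Astrocyte markers were found in neurons too, with Aqp4 at 2.88 ± 1.12 CPM, Gja1 at 8.22 ± 2.21 CPM and Agt at 19.2 ± 7.07 CPM. In astrocytes these were at 135 ± 19.9, 454 ± 45.3 and 635 ± 121 CPM. The part of glial RNA in the Slc6a11 and Slc6a9 values of neuron populations, M2.Hdc among them, was not tested. Slc6a11 was at 81.8 ± 27.5 CPM in M1.GABA (23 UMIs, log2 1.36) and 9.87 ± 4.23 CPM in M24.Avp/Oxt neurons (log2 -1.32). Slc6a9 was at 18.2 ± 6.53 CPM in M5.Snypo2 (log2 0.68) and 2.41 ± 2.84 CPM in M24.Avp/Oxt neurons (5 UMIs, log2 -2.09). The call of Slc6a11 in M1.GABA was lost without the Insulin library of run 230 (edgeR adjusted p = 0.0831) or run 232 (0.102), and in nuclei of at least 2000 UMIs (log2 0.87, adjusted p = 0.382). That of Slc6a9 in M5.Snypo2 was lost without the Insulin library of run 230 (edgeR adjusted p = 0.0529), the Saline library of run 230 (0.217) or the Saline library of run 232 (0.157).

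The balance of GABA and glutamate genes in a population was described by an index, log2 Gad2 (GABA synthesis) minus log2 Slc17a6 (glutamate release). It was above 0 in 19 populations and below 0 in 16. An index below 0 does not mean that Gad2 is absent. M1.GABA, with a median of only 1336.5 UMIs per nucleus, had an index of -0.08 with log2 Gad2 at 7.01. M7.Ust neurons, with a median of 8697.5 UMIs, had an index of -1.19 with log2 Gad2 at 6.08. Over 24 genes with a median population of at least 1 CPM, Spearman's rho with the index was highest for Abat (0.47) and Gabra3 (0.37) and lowest for Gabra2 (-0.40).

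Several subunit genes sit side by side in the genome (GENCODE M21, GRCm38). Gabrg1, Gabra2, Gabra4 and Gabrb1 span 1.40 Mb of chromosome 5 (70751047 to 72149037). The Gabra4 and Gabrb1 genes, on opposite strands, overlap by 196 bases at their starts, and any effect on their counts was not tested. Gabrg3 and Gabra5 neighbour each other on chromosome 7 (56716465 to 57510059), Gabra6 and Gabrb2 on chromosome 11 (42306437 to 42629028), and Gabre, Gabra3 and Gabrq on the X chromosome (72255999 to 72842602). Over the 35 populations and the 10 GABA-A genes with a median population of at least 1 CPM, the 10 pairs from the same cluster had a median rho of 0.43 (-0.04 to 0.85, 9 above 0). The other 35 pairs had a median of -0.00 (-0.52 to 0.38, 17 above 0). Gabra2 and Gabrg1 had a rho of 0.65, and Gabra4 and Gabrb1 of 0.50. Pairs share genes and populations share libraries, so no test is given.

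The third comparison asked whether insulin changed these genes. None of them was called between Insulin and Saline in all nuclei, in the 8 cell types or in the 35 neuron populations, with or without the sequencing run as a block in edgeR's test. In neurons 27 of the 28 genes were tested and 0 had an unadjusted p under 0.05, and likewise in all nuclei. Over all genes 0 of 21190 in all nuclei and 0 of 20275 in neurons were called (0% in both), and 88 and 103 had an unadjusted p under 0.05. With the run as a block, again 0 were called in both, and 1339 and 1862 had an unadjusted p under 0.05, none of them among the 27 genes. The blocked fit called 0.130% of tests over all genes in the 35 populations, at most 126 genes in one of them (M8.Nr5a1), and at most 0.444% of genes in a cell type (OPC). The median log2 difference in neurons, Insulin minus Saline, was -0.00 for the 27 genes and 0.00 for all genes. A p that misses the threshold does not show equal levels.

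**Figure D5:**
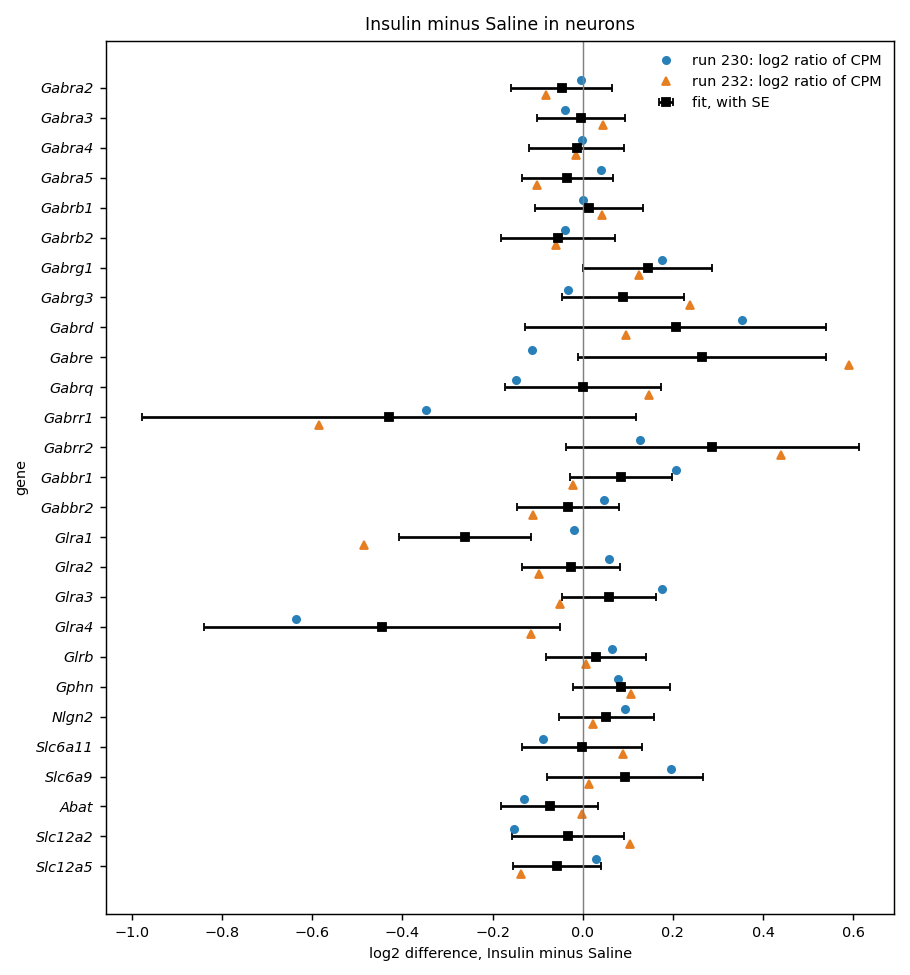
Log2 difference, Insulin minus Saline, in neurons for the 27 tested genes (rows): black squares and bars are the edgeR fit with its SE, blue circles and orange triangles the log2 ratio of CPM within run 230 and run 232. Most genes lie close to 0 in both runs, and Glra1, the gene with the smallest p, is near 0 in run 230 and below 0 in run 232.

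In all nuclei 1 of 27 genes was higher and 1 lower without overlap between the groups (8.44% and 10.2% of all genes), and in neurons 3 and 2 (8.74% and 11.6%). The smallest unadjusted p was that of Glra1 in both. In neurons it had 47.9 and 43.9 CPM in the Insulin libraries, against 48.5 and 61.5 CPM in the Saline libraries (log2 -0.26, SE 0.15, edgeR unadjusted p = 0.136, adjusted p = 1). Both Insulin libraries were below both Saline libraries, by little in run 230 and more in run 232. Glra4 had 5.12 and 3.88 CPM in the Insulin libraries, against 7.96 and 4.19 CPM in the Saline libraries (log2 -0.45, SE 0.39, edgeR unadjusted p = 0.311, adjusted p = 1) and Gabrg1 147 and 178 CPM in the Insulin libraries, against 130.1 and 163 CPM in the Saline libraries (log2 0.14, SE 0.14, edgeR unadjusted p = 0.362, adjusted p = 1). For Glra4 and Gabrg1 the Insulin and Saline libraries overlapped. In all nuclei the order was Glra1 (39.3 ± 3.18 CPM in Insulin and 48.02 ± 7.26 CPM in Saline, log2 -0.29, SE 0.15), Glra4 (4.28 ± 0.943 CPM in Insulin and 5.87 ± 2.73 CPM in Saline, log2 -0.46, SE 0.42) and Gabre (5.73 ± 1.51 CPM in Insulin and 4.82 ± 0.177 CPM in Saline, log2 0.24, SE 0.26).

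In astrocytes the smallest p were those of genes with few UMIs, Glra1 (3.91 and 3.24 CPM in the Insulin libraries, against 6.66 and 4.74 CPM in the Saline libraries, log2 -0.68, SE 0.42), Gabrr2 (4.64 and 3.01 CPM in the Insulin libraries, against 4.99 and 6.32 CPM in the Saline libraries, log2 -0.59, SE 0.42) and Glra4 (3.42 and 1.85 CPM in the Insulin libraries, against 5.71 and 2.81 CPM in the Saline libraries, log2 -0.69, SE 0.57). The smallest edgeR adjusted p there was 1.00, and 1 of 25 tested genes was higher and 3 lower without overlap, where 15.4% and 10.9% of all genes were. In oligodendrocytes Gabrr2 had 125 and 122 CPM in the Insulin libraries, against 148 and 140.0 CPM in the Saline libraries (log2 -0.22, SE 0.19, edgeR unadjusted p = 0.293, adjusted p = 1), so that its groups did not overlap. Gabrq (2.85 and 3.96 CPM in the Insulin libraries, against 5.67 and 5.77 CPM in the Saline libraries, log2 -0.76, SE 0.60) and Gabra3 (9.98 and 11.9 CPM in the Insulin libraries, against 13.04 and 14.4 CPM in the Saline libraries, log2 -0.34, SE 0.37) were also lower in both Insulin libraries. In oligodendrocytes 3 of the 20 tested genes were lower and 0 higher without overlap, where 13.2% and 12.3% of all genes were.

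In nuclei annotated Micro, 8 of 19 tested genes were lower in Insulin without overlap and 1 was higher, where 14.9% and 22.4% of all genes were. Gabra3 had 29.6 and 54.5 CPM in the Insulin libraries, against 85.1 and 99.1 CPM in the Saline libraries (log2 -1.15, SE 0.40, edgeR unadjusted p = 0.0191, adjusted p = 0.895). The neuron markers Snap25, Syt1 and Rbfox3 were also lower in Insulin. Summed, they were at 431 and 1429 CPM in the Insulin libraries, against 1662 and 1675 CPM in the Saline libraries, and their part in the result was not tested. Without the Insulin library of run 232, which leaves the Insulin library with the fewest neuron markers alone against both Saline libraries, edgeR called 8 of 20 tested genes lower in nuclei annotated Micro, where 6.57% of all genes were, among them Gabra2 (log2 -2.30, adjusted p = 0.00131) and Gabrb2 (log2 -2.18, adjusted p = 0.00321). In nuclei annotated Mural Cell, 6 of 12 tested genes were higher in Insulin and 0 lower without overlap, where 15.0% and 14.9% of all genes were. Gabrb1 had 572 and 670.2 CPM in the Insulin libraries, against 335 and 256 CPM in the Saline libraries (log2 1.08, SE 0.30, edgeR unadjusted p = 0.00811, adjusted p = 1). There the summed neuron markers were at 790 and 547 CPM in the Insulin libraries, against 324 and 423 CPM in the Saline libraries, and their part was not tested either.

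Over the 35 neuron populations the smallest adjusted p was that of Glra3, in M27.Trh neurons, and it did not pass. Glra3 had 207 and 196 CPM in the Insulin libraries, against 48.8 and 99.5 CPM in the Saline libraries (log2 1.46, SE 0.34, edgeR unadjusted p = 0.0014, adjusted p = 0.436), and the Insulin libraries lay above the Saline libraries. In that population 0.0431% of all genes were called. The Saline libraries held 13 and 33 UMIs of Glra3. It passed with no filter on low counts (log2 1.53, edgeR adjusted p = 0.00788, with 0.340% of all genes called higher), without the Insulin library of run 232 (log2 1.52, adjusted p = 0.0423, with 0.707%) and without the Saline library of run 232 (log2 2.05, adjusted p = 0.00199, with 1.37%), and in no other alternative. In that last fit Gabrb2 was called too (log2 2.48, adjusted p = 0.000856). In M10.Sim1|Trh neurons, 11 of 21 tested genes were higher in Insulin without overlap and 2 lower, where 14.7% and 12.8% of all genes were. Gabrb1 had 1218 and 1227 CPM in the Insulin libraries, against 984 and 975 CPM in the Saline libraries there (log2 0.29, SE 0.16, edgeR unadjusted p = 0.0996, adjusted p = 1) and Slc6a11 36.7 and 31.8 CPM in the Insulin libraries, against 19.9 and 20.9 CPM in the Saline libraries (log2 0.73, SE 0.29, edgeR unadjusted p = 0.0308, adjusted p = 1). This population was picked after its values were seen, and 0 of its 21 genes passed.

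In Agrp neurons, Gabrb2 had 37.6 and 31.6 CPM in the Insulin libraries, against 32.8 and 45.8 CPM in the Saline libraries (log2 -0.17, SE 0.28) and Gabre 24.1 and 26.3 CPM in the Insulin libraries, against 27.7 and 30.6 CPM in the Saline libraries (log2 -0.22, SE 0.29). The order of the libraries differed from gene to gene, and 2 of the 23 tested genes were higher and 4 lower without overlap, where 16.2% and 14.5% of all genes were. Whether the difference between Insulin and Saline in a cell type differed from that in neurons was tested for 25 genes and 7 types. Of these 175 tests 0 passed and 12 had an unadjusted p under 0.05, against 0 and 3628 of 109732 over all genes, by edgeR's interaction test. Of the 34 companion genes tested in neurons, 0 were called and 0 had an unadjusted p under 0.05.

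Because 5 of the genes are X-linked (Gabre, Gabra3, Gabrq, Glra4 and Glra2) and the runs differ in Xist and Uty, neurons of run 232 were compared with those of run 230, with treatment held. None of the 27 genes was called, where 10.8% of all genes were. The smallest unadjusted p belonged to Glra4, at 4.04 CPM in run 232 and 6.54 CPM in run 230 (means of 2 libraries, log2 -0.72, SE 0.21, edgeR adjusted p = 0.0575), Gabrg1, at 171 and 139 CPM (log2 0.25, SE 0.08, edgeR adjusted p = 0.0812), and Gabrr1, at 0.472 and 0.888 CPM (log2 -0.97, SE 0.32, edgeR adjusted p = 0.0867). With no filter on low counts Glra4 passed (log2 -0.73, edgeR adjusted p = 0.0125).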

How the data were processed

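Raw UMI counts per gene and nucleus, with cell type, neuron population, treatment and run labels, were used as the authors deposited them. The authors used Cell Ranger and GRCm38, per the submitters' processing notes; its version, annotation and filters are not given in the sources used here. The library names match no sample title, so libraries were identified by their treatment and run labels. Counts were summed per library and cell type or population (nuclei labelled doublet or unassigned were left out of these), and fitted with edgeR 4.0.16 in R 4.3.3 (TMM, filterByExpr with a minimum count of 10 and a minimum total of 15, quasi-likelihood test, Benjamini-Hochberg adjustment at 0.05). Cell types and populations were each set against the mean of the others with library as a block, adjusted over all genes and units together. Treatment was fitted per unit across all genes without a block. The run is a shared batch of 1 Insulin and 1 Saline library, and libraries of a run deviated together from their group means (r = 0.701 over 21190 genes in all nuclei and 0.680 in neurons), so the run was also fitted as a replicate block. Alternatives were no filter, RLE size factors, DESeq2 1.42.0, nuclei with at least 2000 UMIs and leaving out each library. The scripts were tested on simulated counts. The genes and lists were chosen with earlier results of these data known. All 28 genes were named by rule, each with its highest cell type and its highest and lowest population. The rule also took the 3 genes with the smallest p for treatment in all nuclei, neurons, astrocytes and oligodendrocytes, the 3 with the smallest p for run, and the 3 companion genes per cell type with the largest called log2 difference. One companion gene that the rule named is not reported here. Other cases were picked after their values were seen. Gene positions came from GENCODE M21, and promoters from RefSeq.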

Additional observations from a re-analysis of the deposited data

How the results depend on the processing

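Of the called members by cell type, 134 in the report, 115 to 133 were called when 1 library was left out, and 130 to 140 with no filter, RLE size factors, DESeq2 or nuclei of at least 2000 UMIs. For neuron populations, 459 in the report, these were 398 to 414 and 448 to 467. RLE size factors moved the median of all genes by 0.11 in Ependymo, 0.12 in Mural Cell and 0.27 in M1.GABA (log2), so differences there are relative to that shift. For treatment, the count of called members stayed at 0 with the run as a replicate block, in edgeR and in DESeq2, with RLE size factors and without nuclei whose barcode occurs in both libraries of a run. Leaving out 1 library gave 0 to 9 calls in all nuclei and cell types and 0 to 2 in neuron populations, each fit with 1 library alone in its group, which is then assumed to vary like the others. Outside Micro, the calls without the Insulin library of run 232 were Gabra5 in OPC (log2 -2.38, where 0.860% of all genes were called lower) and Glra3 in M27.Trh (log2 1.52), and the single call without the Saline library of run 230 was Gabra2 in Ependymo (log2 -2.19, where 1.32% were). With no filter on low counts, 1 gene was called for treatment in neuron populations (Glra3 in M27.Trh) and 1 for run in neurons (Glra4, log2 -0.73, edgeR adjusted p = 0.0125). Leaving out 1 library turned Glra4, whose log2 difference was -0.89 to 0.16 in all nuclei and -0.85 to 0.14 in neurons, and Gabre, at -0.0305 to 0.46 in all nuclei; the cause was not tested. Of the companion genes, Kctd8 in M19.Ddc neurons was called with the replicate block (log2 -0.62, edgeR adjusted p = 0.00684), where 58 of 12067 genes were. All other companion calls came from fits with 1 library left out, among them Kctd8 in further populations, Gabarap, Dbi, Kctd16, Gad1 and Gad2. For the run, leaving out a library leaves no residual degrees of freedom, so no such fit was made.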
